A study of Arabidopsis thaliana with 18 samples.

Results

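Total RNA from dry seeds of the Arabidopsis abci20 mutant was compared with total RNA from dry seeds of Col-0. The comparison rests on the 6 arrays of 18 whose labels give both total RNA and 1 of these genotypes, 3 arrays of abci20 and 3 of Col-0. The other 12 arrays hold polysomal and monosomal RNA of the same genotypes and enter here for the estimate of the spread and for a closing comparison between fractions. All seeds were in the Col-0 ecotype and were taken dry at harvest, and no treatment is labelled. The abci20 seeds are labelled as a mutant and the Col-0 seeds as wild type, and the sources used here name neither the allele nor the number of independent lines. Each replicate was RNA from seeds of a bulk of 8 plants grown in a randomized block layout.

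ABCI20 is a member of the ABC transporter proteins, and the series asks about its part in seed maturation. A dry Arabidopsis seed holds an embryo packed with storage protein and oil, a single layer of endosperm and a dead coat, and it carries a pool of stored messages laid down during maturation. Abscisic acid promotes maturation and dormancy, whereas gibberellin and ethylene promote germination. Late in maturation the embryo also loses its chlorophyll and dries out. In these bulk samples, fewer cells of a type and less of a message per cell cannot be told apart.

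The values were log2 signals summarised by RMA, so a difference of 1 unit is a 2-fold difference, and levels of different genes cannot be set against each other. Array medians were 3.35, 3.69 and 3.6 log2 in abci20, against 3.43, 3.47 and 3.32 in Col-0. Markers of the labelled tissue and of other tissues were read first, as a description only, because probe sets respond differently to the same amount of message. The 14 seed identity markers, which encode storage proteins, oleosins and late maturation proteins, had median levels of 11.41, 11.57 and 11.82 log2 in abci20 and 12, 11.84 and 11.86 in Col-0. The median of the 18 leaf, silique and pollen markers lay between 2.34 and 2.83 log2 in abci20 and between 2.33 and 2.89 in Col-0. The median of the 16 seed coat markers lay between 2.14 and 2.64 in abci20 and between 2.15 and 2.31 in Col-0, and that of the 13 endosperm markers between 2.65 and 3.52 in abci20 and between 2.63 and 3.05 in Col-0. Log2 signals have no true 0, so no marker can be said to be absent, and these levels do not by themselves check the tissue label.

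The array of abci20 replicate 1 stood apart from its group. Across probe sets it correlated with the other abci20 arrays at r = 0.893 and 0.915, whereas abci20 replicates 2 and 3 correlated with each other at 0.959. With the Col-0 arrays replicate 1 correlated at 0.932 to 0.942, replicate 2 at 0.908 to 0.937 and replicate 3 at 0.93 to 0.952. Closeness to Col-0 therefore does not set replicate 1 apart, and its lower correlation with its own group does. The Col-0 arrays correlated among themselves at 0.957 to 0.963. These correlations run across genes, which are not independent replicates. Each count of a gene list below is therefore given with all 6 arrays and, where it differs, without abci20 replicate 1. A change called with all 6 arrays is given both ways where leaving out 1 array moved it by over 1.5 times. List members called only without abci20 replicate 1 are, where named, given from that fit.

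The disrupted gene was low in the mutant. ABCI20 (AT5G02270) measured 1.88, 1.1 and 2.33 log2 in abci20, against 4.42, 4.02 and 3.8 in Col-0, so the groups did not overlap. It fell by 2.31 (SE 0.341, adjusted p = 0.00151) in limma's moderated test over all arrays, and by 2.36 (adjusted p = 0.00188) without abci20 replicate 1. The call held whichever of the 6 arrays was left out, with a largest adjusted p of 0.0117. The position of the probe set relative to the mutation is not known here, and neither is the kind of mutation. The 10 measured loci on either side of ABCI20 in locus order had fitted changes from -0.97 to 0.86, and 0 of these 20 passed the threshold (smallest adjusted p = 0.123). In the fit that left out abci20 replicate 1, 3 of the 20 passed: PCS1 (adjusted p = 0.0143), AT5G02240 (adjusted p = 0.0431) and the expansin gene EXPA9 (adjusted p = 0.0498).

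At a Benjamini-Hochberg adjusted p of 0.05, 932 of 27827 probe sets passed with all arrays (3.35%), of which 310 were higher in abci20 (1.11%) and 622 lower (2.24%). Leaving out abci20 replicate 1 raised the count to 2640 (9.49%), with 1295 higher (4.65%) and 1345 lower (4.83%). The 850 probe sets called in the same direction both ways (3.05%) were 91.2% of the first set and 32.2% of the second. They comprised 269 that rose (0.967%) and 581 that fell (2.09%). Leaving out abci20 replicate 2 gave 504 calls, and leaving out Col-0 replicate 1, 2 or 3 gave 457, 619 or 355. Centring each array on its median gave 1092 calls, with 169 higher and 923 lower, so that 15.5% were higher, against 33.3% as deposited. When the spread was estimated from the 6 total RNA arrays alone, with 4 residual degrees of freedom, 0 passed and the smallest adjusted p was 0.0677. The mean correlation of an array with its own group was 0.904 to 0.937 in abci20 and 0.958 to 0.961 in Col-0 total RNA. It was 0.983 to 0.987 in polysomal and 0.96 to 0.969 in monosomal RNA. The fit over all arrays pools these groups, so its spread can be too small for this comparison and its count too high. How much of the loss came from the spread and how much from fewer degrees of freedom was not tested. At an unadjusted p under 0.05 the 6-array fit had 2765 probe sets, against 4857 in the fit over all arrays. The 932 were all among the 2765. That is no further support for them, since both fits share the same total RNA arrays and fitted differences.

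**Figure D1:**
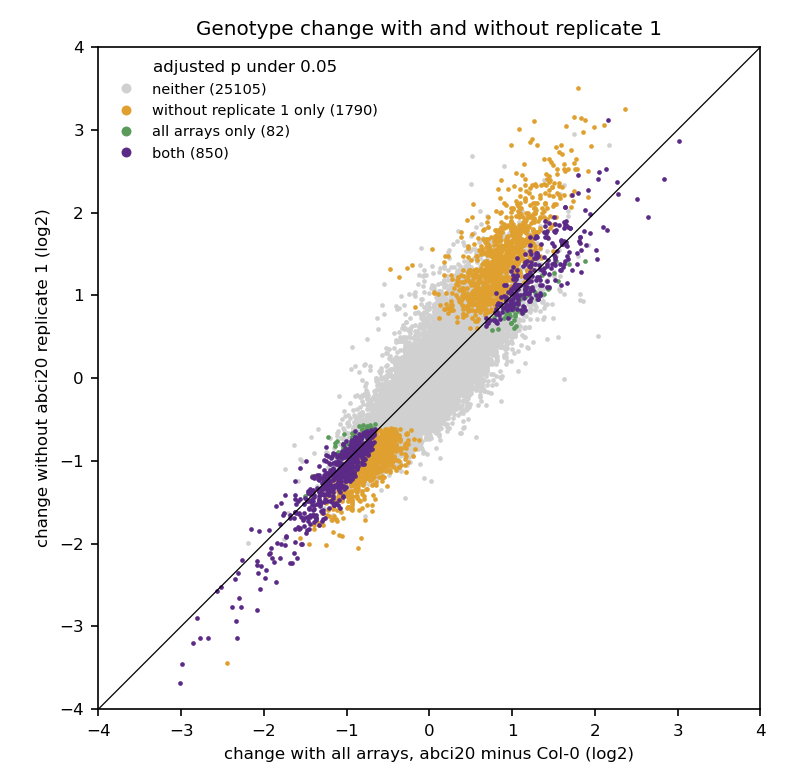
Fitted change of every probe set with all arrays (x axis, abci20 minus Col-0, log2) against the change without abci20 replicate 1 (y axis, log2), coloured by the fits in which it passed an adjusted p of 0.05. The 1790 probe sets called only without that array (orange) outnumber the 850 called both ways (purple), and 82 (green) were called only with all arrays.

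The values of replicate 1 were then placed against the Col-0 range. Among the 1295 probe sets higher without it, replicate 1 lay above all 3 Col-0 values in 409 (31.6%), within the Col-0 range in 510 (39.4%) and below it in 376 (29.0%). The median distance from the Col-0 mean over those probe sets was -0.06 log2 in replicate 1, 1.44 in replicate 2 and 1.27 in replicate 3. Among the 1345 that were lower, replicate 1 lay below all Col-0 values in 905 (67.3%), within their range in 269 (20.0%) and above it in 171, with medians of -0.45, -1.12 and -0.92. The probe sets were chosen by replicates 2 and 3 in this count, so it describes replicate 1 and tests nothing.

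The calls were not spread evenly over signal levels. Ranked by mean level over the 6 arrays and cut into 5 classes of equal size, the dimmest class held calls in 0.162% of its probe sets, followed by 0.988%, 2.01% and 4.73%, and the brightest class in 8.86%. Of the 622 lower calls, 404 were in the brightest class, whereas the higher calls numbered 7, 44, 82, 88 and 89 from dim to bright. Leaving that array out gave shares of 1.24%, 5.89%, 11.8%, 12.9% and 15.6%, and the middle class then held 553 of the higher calls. The median change was 0.17 log2 in the middle class and -0.16 in the brightest with all arrays. By chromosome, between 2.79% and 3.62% of the nuclear probe sets were called, and 0 of 15 chloroplast and 1 of 92 mitochondrial probe sets.

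**Figure D2:**
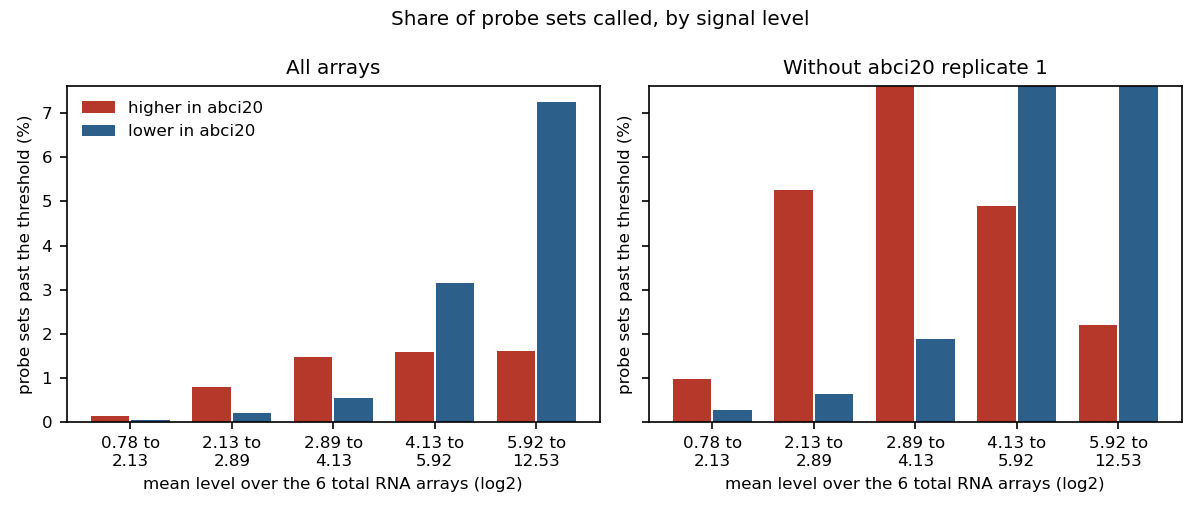
Share of probe sets past an adjusted p of 0.05 (y axis, percent) in each of 5 classes of equal size by the mean level over the 6 total RNA arrays (x axis, log2), with red bars for higher and blue bars for lower in abci20, for all arrays (left) and without abci20 replicate 1 (right). Lower calls rise with level in both panels, while the higher calls without replicate 1 peak in the middle class.

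The genes described next are the 16 higher and 16 lower ones with the largest changes among the 836 that passed with and without abci20 replicate 1 and whose 3 abci20 and 3 Col-0 values did not overlap (262 higher, 574 lower). Such separation alone occurred in 4673 probe sets, 16.8% of all. Because the choice required it, the separation of these 32 genes is no further support for them.

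Among the genes that rose, a locus with no symbol in the reference table led. AT1G71250 measured 8.4, 7.95 and 7.84 log2 in abci20, against 4.71, 5.15 and 5.26 in Col-0. It rose by 3.02 (SE 0.217, adjusted p = 2.51e-06), the smallest adjusted p of the comparison, and by 2.86 (adjusted p = 5.69e-06) without abci20 replicate 1. NRT2.6, of the high-affinity nitrate transporter family, measured 6.26, 5.13 and 4.83 log2 in abci20, against 2.13, 3 and 2.61 in Col-0, and rose by 2.83 (SE 0.329, adjusted p = 0.000362). Its lowest abci20 value was well above its highest Col-0 value.

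CCL and COL5 both belong to the list of clock outputs. CCL, an unstable message under clock control, measured 7.28, 6.31 and 6.19 log2 in abci20, against 4.39, 3.97 and 3.89 in Col-0, and rose by 2.51 (SE 0.341, adjusted p = 0.000892). COL5, a CONSTANS-like zinc finger gene, measured 6.8, 5.85 and 6.03 log2 in abci20, against 4.23, 4.48 and 4.29 in Col-0, and rose by 1.89 (SE 0.266, adjusted p = 0.00104). In CCL and COL5 replicate 1 was the highest of the abci20 arrays, and their changes without it were 2.16 (adjusted p = 0.00139) and 1.61 (adjusted p = 0.00155).

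HSP21, a small heat shock protein of the chloroplast, measured 6.39, 6.92 and 6.44 log2 in abci20, against 3.95, 4.36 and 4.62 in Col-0, and rose by 2.27 (SE 0.312, adjusted p = 0.00095). GRF5 (AT3G13960), a growth-regulating factor that promotes leaf cell proliferation, measured 7.95, 7.18 and 6.51 log2 in abci20, against 4.63, 5.52 and 5.04 in Col-0, and rose by 2.15 (SE 0.419, adjusted p = 0.00988). PSBO2, a subunit of the oxygen-evolving complex, measured 3.86, 5.46 and 4.45 log2 in abci20, against 3.31, 1.88 and 2.45 in Col-0, and rose by 2.04 (SE 0.393, adjusted p = 0.00887). In HSP21 the 3 mutant arrays lay close together, whereas PSBO2 and GRF5 varied within abci20 by more than 1 log2.

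Of the remaining 9 higher genes, all of which carry only a locus name here, 5 kept an adjusted p under 0.05 whichever array was left out. AT4G28180 rose by 2.64 (adjusted p = 0.00351), or 1.94 (adjusted p = 0.00181) without abci20 replicate 1, AT3G59250 by 2.13 (adjusted p = 0.00475), AT5G11420 by 2.1 (adjusted p = 0.000448), AT3G44210 by 1.94 (adjusted p = 0.00263) and AT1G15125 by 1.94 (adjusted p = 0.000366). The other 4 were AT1G21528, which rose by 2.28 (adjusted p = 0.0171), AT4G26130 by 2.03 (adjusted p = 0.025), AT1G13380 by 2.01 (adjusted p = 0.0125), and AT4G28870 by 1.91 (adjusted p = 0.0319). The change of AT4G26130 was 1.44 (adjusted p = 0.0435) without abci20 replicate 1 and 2.7 (adjusted p = 0.00219) without abci20 replicate 3. Leaving out a single array ended the calls of AT1G21528 (without abci20 replicate 2 or Col-0 replicate 3, adjusted p up to 0.0898), AT4G26130 (without abci20 replicate 2 or Col-0 replicate 2 or 3, adjusted p up to 0.0925) and AT1G13380 (without Col-0 replicate 1, adjusted p = 0.0601). The omission of 1 array ended the call of AT4G28870 (without abci20 replicate 2 or 3 or Col-0 replicate 2 or 3, adjusted p up to 0.155).

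Among the genes that fell, AT2G43590 had the largest change. It measured 6.67, 5.07 and 4.26 log2 in abci20, against 8.44, 8.15 and 8.43 in Col-0, and fell by 3.01 (SE 0.398, adjusted p = 0.000733), or by 3.68 (adjusted p = 1.77e-06) without abci20 replicate 1, its highest mutant array. AT5G66430 measured 7.48, 5.81 and 6.3 log2 in abci20, against 9.61, 9.35 and 9.59 in Col-0, and fell by 2.99 (SE 0.303, adjusted p = 0.000229), or by 3.46 (adjusted p = 7.1e-07) without that array. In both genes replicate 1 lay between the other mutant arrays and Col-0.

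Several of the lower genes act in hormone pathways and growth. ARL, the ARGOS-like gene, which promotes organ growth through cell expansion, measured 2.64, 2.48 and 2.3 log2 in abci20, against 5.02, 5.27 and 5.57 in Col-0, and fell by 2.81 (SE 0.32, adjusted p = 0.000339). CCD7, the carotenoid cleavage dioxygenase that acts early in strigolactone synthesis, measured 4.98, 4.64 and 5.33 log2 in abci20, against 7.88, 7.22 and 7.57 in Col-0, and fell by 2.57 (SE 0.288, adjusted p = 0.000339). EBF2, the F-box protein that targets the ethylene transcription factor EIN3 for breakdown, measured 5.99, 5.64 and 6.29 log2 in abci20, against 8.35, 8.42 and 8.7 in Col-0, and fell by 2.52 (SE 0.278, adjusted p = 0.000338). In these 3 genes replicate 1 lay within the spread of the other mutant arrays or close to it, and the changes of CCD7 and EBF2 were the same to 2 decimals without it.

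MAPKKK19, a protein kinase gene, measured 4.41, 2.68 and 3.33 log2 in abci20, against 6.45, 5.4 and 6.56 in Col-0, and fell by 2.67 (SE 0.445, adjusted p = 0.00353). PUP10, a purine permease family gene, measured 4.34, 3.32 and 3 log2 in abci20, against 6.06, 5.69 and 6.05 in Col-0, and fell by 2.38 (SE 0.29, adjusted p = 0.000396). PR4, a hevein-like pathogenesis-related gene, measured 6.7, 4.83 and 5.66 log2 in abci20, against 8.03, 7.95 and 8.08 in Col-0, and fell by 2.28 (SE 0.374, adjusted p = 0.00304). For all 3 the value of replicate 1 was the highest among the mutant arrays and still below every Col-0 value.

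Of the other 7 lower genes, which carry only a locus name, AT2G22880 fell by 2.86 (adjusted p = 0.000396), AT1G14940 by 2.77 (adjusted p = 0.000975), AT5G43620 by 2.35 (adjusted p = 0.000396), AT5G59530 by 2.3 (adjusted p = 0.00396) and AT5G22460 by 2.27 (adjusted p = 0.000229), and each held whichever array was left out. AT1G03890 fell by 2.34 (adjusted p = 0.0298), and AT1G26400 by 2.32 (adjusted p = 0.0166). These 2 fell by 2.93 (adjusted p = 0.00457) and 3.14 (adjusted p = 0.000139) without abci20 replicate 1, and AT1G03890 fell by 1.47 (adjusted p = 0.0974) without abci20 replicate 2. With ABCI20, 26 of the 32 genes with the largest changes stayed past the threshold under every omission of 1 array. Calls lost without 1 array were those of AT1G03890 (without abci20 replicate 2 or Col-0 replicate 1, 2 or 3, adjusted p up to 0.0974) and AT1G26400 (without abci20 replicate 2 or 3 or Col-0 replicate 1 or 3, adjusted p up to 0.0755).

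**Figure D3:**
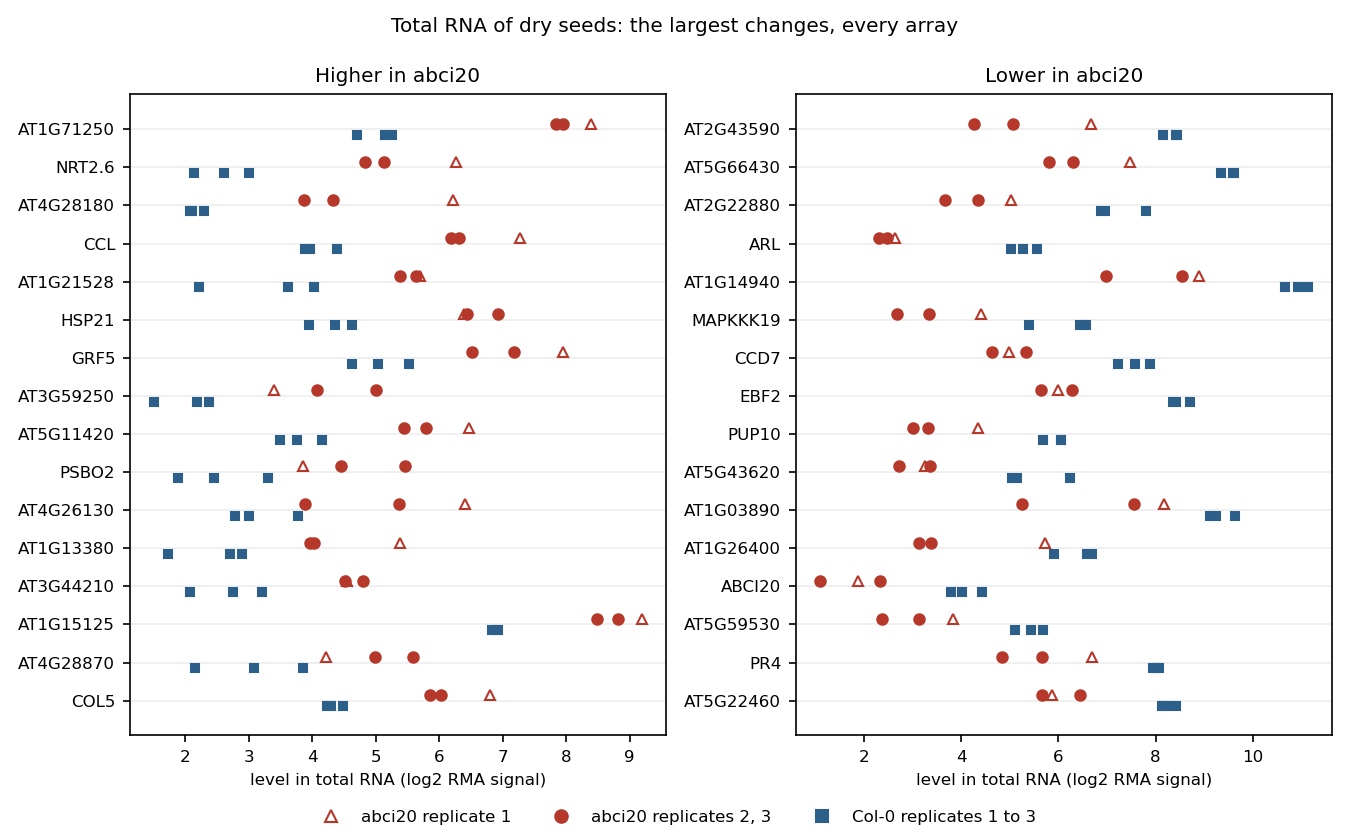
Level of each of the 32 genes (x axis, log2 RMA signal) in every total RNA array, for the 16 higher genes (left) and the 16 lower genes (right), with red marks for abci20 (open triangle for replicate 1) and blue squares for Col-0. The marks of the genotypes do not overlap in any of these genes, which the choice of genes required, and replicate 1 lies outside the other mutant arrays in many of them.

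The named pathways were then described from lists of genes, each by how many of its measured members passed and in which direction. With all arrays the background was 1.11% higher and 2.24% lower, and the median fitted change over all probe sets was 0.01 log2. Without abci20 replicate 1 the background was 4.65% higher and 4.83% lower, with a median of -0.05. The share called also rose with level, to 8.86% in the brightest class, where 404 of 5566 probe sets were lower. The count of a list of bright genes is therefore to be read beside that share. Centring each array on its own median shifted the change of every gene by -0.142, so a list whose median is small can change sign with the scaling. Signs are given here on the deposited scale. Calls that were lost when 1 array was left out are named at the end of a paragraph. Of the 932 called probe sets, 922 had no overlap between the genotypes, so such separation adds no support to a called member.

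The clade A protein phosphatases switch abscisic acid signalling off when the hormone's receptors are empty. Of the 9 measured, 4 fell and 0 rose, with a median of -0.68 (-0.82 after median centring). The list's median distance from the Col-0 mean was -0.88, -0.57 and -0.67 log2 in the abci20 arrays and -0.05, -0.09 and 0.09 in the Col-0 arrays. HAI1 measured 4.55, 4.3 and 5.1 log2 in abci20, against 6.11, 6.08 and 5.99 in Col-0, did not overlap between the groups and fell by 1.41 (SE 0.267, adjusted p = 0.00816), also whichever array was left out.

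ABI1 measured 5.11, 5.11 and 4.49 log2 in abci20, against 6.39, 5.52 and 5.68 in Col-0, and fell by 0.96 (SE 0.234, adjusted p = 0.0308). HAI2 measured 6.79, 6.76 and 7.47 log2 in abci20, against 7.93, 7.81 and 8.39 in Col-0, and fell by 1.03 (SE 0.27, adjusted p = 0.0433). PP2CA measured 7.59, 8.23 and 8.09 log2 in abci20, against 8.75, 8.74 and 8.89 in Col-0, and fell by 0.82 (SE 0.2, adjusted p = 0.0313). The list's count was 2 of 9 without abci20 replicate 1, with a median of -0.63. The 5 members that did not pass were HAB1 at -0.68 (adjusted p = 0.0962), AHG1 at -0.68 (adjusted p = 0.0724), ABI2 at -0.63 (adjusted p = 0.107), HAI3 at -0.34 (adjusted p = 0.582) and HAB2 at 0.01 (adjusted p = 0.986). Omitting 1 array at a time ended the calls of ABI1 (without abci20 replicate 3 or Col-0 replicate 1 or 3, adjusted p up to 0.133), HAI2 (without abci20 replicate 1 or 2 or Col-0 replicate 1, 2 or 3, adjusted p up to 0.179) and PP2CA (without abci20 replicate 1 or Col-0 replicate 1, 2 or 3, adjusted p up to 0.116).

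Elsewhere in that pathway, 1 of 20 receptor and SnRK2 kinase genes fell and 0 rose (median -0.11). It was the receptor gene PYL5, with 5.66, 5.85 and 5.3 in abci20 and 6.86, 6.26 and 6.59 in Col-0, which fell by 0.97 (adjusted p = 0.0213). The count was 1 higher and 5 lower without abci20 replicate 1: PYL1 rose by 1.45 (adjusted p = 0.0325), and PYL5, PYL12, PYL11, PYR1 and RCAR1 fell by 1 (adjusted p = 0.0175), 1.6 (adjusted p = 0.0017), 1.83 (adjusted p = 0.0104), 0.87 (adjusted p = 0.0458) and 0.78 (adjusted p = 0.0442). Among 30 genes that respond to the hormone, 1 fell and 0 rose (median -0.05). This was AFP3, of the family of proteins that bind the maturation factor ABI5, which measured 6.17, 5.61 and 6.39 log2 in abci20, against 7.64, 7.2 and 7.63 in Col-0, and fell by 1.43 (SE 0.278, adjusted p = 0.00969). Its relative AFP1 joined it without abci20 replicate 1, with a fall of 1.78 (adjusted p = 0.00723) against -1.39 (adjusted p = 0.0502) with all arrays. The call of PYL5 was lost when 1 array was left out (without abci20 replicate 3 or Col-0 replicate 1 or 3, adjusted p up to 0.0939).

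Among 33 regulators of dormancy and germination, 1 rose and 2 fell (median -0.17). MFT (E12A11), a seed gene of the phosphatidylethanolamine-binding family that acts in germination control, measured 7.93, 7.11 and 7.42 log2 in abci20, against 9.24, 9.22 and 9.38 in Col-0. It fell by 1.79 (SE 0.209, adjusted p = 0.000362), and every mutant array was more than 1 log2 below every Col-0 array. AFP2, a relative of AFP3, measured 7.23, 6.76 and 6.72 log2 in abci20, against 8.01, 7.8 and 7.88 in Col-0, and fell by 1 (SE 0.203, adjusted p = 0.0128). PIF1 (PIL5), the phytochrome-interacting factor that restrains germination in the dark, measured 7.45, 7.26 and 6.76 log2 in abci20, against 5.58, 6.32 and 6.44 in Col-0, and rose by 1.05 (SE 0.263, adjusted p = 0.0365). The list had 0 higher and 2 lower without abci20 replicate 1. Leaving out a single array ended the calls of AFP2 (without Col-0 replicate 1, adjusted p = 0.0533) and PIF1 (without abci20 replicate 1 or 2 or Col-0 replicate 1, 2 or 3, adjusted p up to 0.149).

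Ethylene genes held 4 lower and 0 higher of 33 (median -0.1). Beside EBF2 and ARL they were EIN2, the membrane protein that carries the signal to the nucleus, and EIL3, a relative of EIN3. EIN2 measured 4.88, 4.75 and 4.62 log2 in abci20, against 5.74, 5.85 and 5.83 in Col-0, and fell by 1.06 (SE 0.211, adjusted p = 0.0115). EIL3 measured 7.36, 6.62 and 7.35 log2 in abci20, against 8.12, 8.24 and 8.17 in Col-0, and fell by 1.07 (SE 0.21, adjusted p = 0.0105). Neither overlapped between the genotypes, and all 4 held under each omission of 1 array. The list had 2 higher and 6 lower members without abci20 replicate 1: the kinase gene CTR1 at -1.07 (adjusted p = 0.0116) and EDF3 at -0.72 (adjusted p = 0.027) joined the lower ones, and the receptor gene ERS2 rose by 1.03 (adjusted p = 0.0379) and the synthesis gene ACS5 by 1.04 (adjusted p = 0.0275).

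Gibberellin oxidases held 3 higher and 0 lower of 16 (median 0.12, and -0.02 after median centring). The 3 do not share a direction of action, since GA20OX3 and GA3OX3 make active gibberellin and GA2OX2 inactivates it. GA3OX3 measured 3.68, 5.03 and 3.87 log2 in abci20, against 3.15, 2.3 and 2.18 in Col-0, and rose by 1.65 (SE 0.339, adjusted p = 0.0133). GA20OX3 measured 5.57, 5.2 and 4.09 log2 in abci20, against 3.79, 3.03 and 2.98 in Col-0, and rose by 1.69 (SE 0.409, adjusted p = 0.0306). GA2OX2 measured 6.37, 6.64 and 5.95 log2 in abci20, against 5.07, 5.04 and 5.29 in Col-0, and rose by 1.19 (SE 0.245, adjusted p = 0.0136). The count was 2 higher without abci20 replicate 1. Of 15 gibberellin receptor, DELLA and target genes, 0 passed, with the receptor genes GID1C at -0.79 (adjusted p = 0.054) and GID1B at 1.03 (adjusted p = 0.206). Leaving out abci20 replicate 1 gave 1 of the 15, GID1B, which rose by 1.65 (adjusted p = 0.00729), while GID1C was at -0.69 (adjusted p = 0.0723). The omission of 1 array ended the calls of GA3OX3 (without abci20 replicate 2 or Col-0 replicate 3, adjusted p up to 0.0708), GA20OX3 (without abci20 replicate 1 or 2 or Col-0 replicate 2 or 3, adjusted p up to 0.119) and GA2OX2 (without abci20 replicate 2 or Col-0 replicate 1, adjusted p up to 0.0582).

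Auxin genes held 2 lower of 52: IAA30, of the Aux/IAA repressor family, fell by 2.05 (adjusted p = 0.0216), and ARF6, an auxin response factor, fell by 1.32 (adjusted p = 0.0178). Brassinosteroid genes held 2 higher of 22: DWF1, a sterol reductase of the synthesis pathway, rose by 1.19 (adjusted p = 0.0262), and the receptor gene BRL1 rose by 1.03 (adjusted p = 0.0357). BRL1 measured 2.11, 2.36 and 2.5 log2 in abci20, against 1.18, 1.26 and 1.44 in Col-0, all below the array medians. When abci20 replicate 1 was left out, the auxin list had 3 higher and 2 lower. The uptake carrier gene AUX1 then rose by 1.75 (adjusted p = 0.00794), against 0.85 (adjusted p = 0.46) with all arrays. The receptor gene AFB3 rose there by 0.95 (adjusted p = 0.0244) and IAA8 by 0.9 (adjusted p = 0.0297). The brassinosteroid list had 3 higher in that fit, joined by the synthesis gene BR6OX1 at 1.67 (adjusted p = 0.00194). Of 29 jasmonate genes 1 rose, AOS, the allene oxide synthase, which measured 7.51, 6.72 and 6.86 log2 in abci20, against 5.23, 5.42 and 5.39 in Col-0. It rose by 1.68 (SE 0.254, adjusted p = 0.00182), did not overlap between the genotypes, and held under each omission. Cytokinin response genes had 0 of 37 past the threshold, with RR5 at 0.72 (adjusted p = 0.153), and CCD7 was the 1 lower gene of 14 in the strigolactone and karrikin list. In the fit without abci20 replicate 1 the jasmonate list also had 2 lower, the repressor genes JAZ3 at -1 (adjusted p = 0.0214) and JAZ8 at -1.07 (adjusted p = 0.0488). That fit had 1 cytokinin gene higher, LOG5, an activating enzyme, at 1.09 (adjusted p = 0.0381), and 1 lower, the response regulator RR2 at -0.73 (adjusted p = 0.02). In the strigolactone list CCD8, which acts after CCD7 in synthesis, rose there by 1.52 (adjusted p = 0.0145), opposite to CCD7. Calls lost without 1 array were those of IAA30 (without abci20 replicate 2 or 3 or Col-0 replicate 1 or 3, adjusted p up to 0.094), ARF6 (without abci20 replicate 2 or 3 or Col-0 replicate 2 or 3, adjusted p up to 0.0886) and DWF1 (without abci20 replicate 2 or Col-0 replicate 3, adjusted p up to 0.133). Omitting 1 array at a time ended the call of BRL1 (without abci20 replicate 2 or 3 or Col-0 replicate 1, 2 or 3, adjusted p up to 0.106).

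Of 24 NAC transcription factors, many of which respond to stress, 5 fell and 0 rose, with a median of -0.31 (-0.29 and 6 lower without abci20 replicate 1). NAC019, which responds to drought and abscisic acid, measured 3.32, 2.78 and 2.95 log2 in abci20, against 5.15, 5.14 and 4.28 in Col-0, and fell by 1.84 (SE 0.285, adjusted p = 0.00226). RD26, which responds to dehydration, measured 6.74, 7.05 and 7.21 log2 in abci20, against 8.84, 8.5 and 8.94 in Col-0, and fell by 1.76 (SE 0.214, adjusted p = 0.000396). ATAF2 measured 6.08, 5.73 and 5.27 log2 in abci20, against 6.94, 7.17 and 7.12 in Col-0, and fell by 1.39 (SE 0.221, adjusted p = 0.00264). In each of these 3 genes all mutant arrays lay below all Col-0 arrays, and each held whichever array was left out. NAC032 fell by 1.01 (adjusted p = 0.0291). NAC062 fell by 0.99 (adjusted p = 0.0183). Of 71 WRKY factors, another stress-related family, 0 passed (2 higher without abci20 replicate 1), and the median was 0.01. Lost when 1 array was left out were the calls of NAC032 (without abci20 replicate 2 or Col-0 replicate 1 or 3, adjusted p up to 0.12) and NAC062 (without abci20 replicate 2 or Col-0 replicate 1 or 3, adjusted p up to 0.0745).

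The list of 28 chlorophyll genes, synthesis and breakdown together, had 4 lower and 0 higher (median -0.2). Without abci20 replicate 1 it had 5 lower, joined by HEMA2, of an early synthesis step, at -0.95 (adjusted p = 0.0325). NYC1, which starts the degradation of chlorophyll b, measured 6.88, 7.37 and 8.22 log2 in abci20, against 9.5, 9.3 and 9.25 in Col-0, and fell by 1.85 (SE 0.295, adjusted p = 0.00263), a call that held under each omission. PAO (ACD1), the pheophorbide oxygenase, measured 6.36, 4.9 and 6.55 log2 in abci20, against 7.75, 7.05 and 7.43 in Col-0, and fell by 1.47 (SE 0.349, adjusted p = 0.0275). The regulators NYE1, with 9.58, 9.49 and 9.83 in abci20 and 10.44, 10.42 and 10.53 in Col-0, and NYE2 (AT4G11910), with 9.9, 10.22 and 10 in abci20 and 10.83, 10.7 and 10.78 in Col-0, fell by 0.83 (adjusted p = 0.0153) and 0.73 (adjusted p = 0.0319). In all 4 the genotypes did not overlap, as in 922 of the 932 called probe sets. Of the other breakdown genes measured, PPH had -0.82 (adjusted p = 0.0788) and ACD2 0.49 (adjusted p = 0.381), and no count or test was made for breakdown genes alone. Photosynthesis genes had a median of 0.34 over 43 members (0.21 without abci20 replicate 1, and 0.19 after median centring), with PSBO2 higher and LHCB4.1 lower. By array, that list's median distance from the Col-0 mean was 0.32, 0.13 and 0.18 log2 in abci20 and 0.19, -0.11 and 0.01 in Col-0. LHCB4.1, of the light-harvesting antenna, measured 5.04, 4.54 and 4.9 log2 in abci20, against 5.85, 5.95 and 5.81 in Col-0, and fell by 1.04 (SE 0.201, adjusted p = 0.0095). Leaving out a single array ended the calls of PAO (without abci20 replicate 2 or Col-0 replicate 1 or 3, adjusted p up to 0.103), NYE1 (without abci20 replicate 2 or Col-0 replicate 3, adjusted p up to 0.0681) and NYE2 (without abci20 replicate 3 or Col-0 replicate 1, 2 or 3, adjusted p up to 0.102).

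Autophagy genes, which form the vesicles that carry cell contents to the vacuole, had 4 lower and 0 higher of 27, with a median of -0.54 (-0.68 after median centring). Of the 27 changes 23 were negative, against 13730 of 27827 over all probe sets. The list's median level was 5.19 to 5.93 log2 in abci20 and 6.3 to 6.51 in Col-0, which spans the brightest signal class and the class below it. The median change of all probe sets was -0.16 in the brightest class and -0.05 in the class below. By array, the list's median distance from the Col-0 mean was -0.31, -0.68 and -0.56 log2 in abci20 and -0.02, -0.06 and 0.05 in Col-0. ATG18H measured 5.67, 4.56 and 5.55 log2 in abci20, against 6.92, 6.51 and 6.66 in Col-0, and fell by 1.44 (SE 0.247, adjusted p = 0.00423). ATG18C measured 5.45, 5.19 and 5.02 log2 in abci20, against 6.09, 6.27 and 6.18 in Col-0, and fell by 0.96 (SE 0.189, adjusted p = 0.0107). Both held under each omission. ATG8E, of the family that is attached to the vesicle membrane, fell by 1.06 (adjusted p = 0.0202). ATG3, the enzyme that attaches it, fell by 0.73 (adjusted p = 0.0272). Without abci20 replicate 1 the count was 10 of 27, and the members that joined included APG7 at -1.59 (adjusted p = 0.00542), ATG6 at -1.01 (adjusted p = 0.0144) and APG8A at -1.08 (adjusted p = 0.00974). The omission of 1 array ended the calls of ATG8E (without abci20 replicate 2 or Col-0 replicate 1 or 3, adjusted p up to 0.0939) and ATG3 (without abci20 replicate 2 or 3 or Col-0 replicate 1 or 3, adjusted p up to 0.116).

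Of 27 genes for sugar starvation and amino acid breakdown, 1 rose and 3 fell (median -0.34). BCAT-2, a branched-chain aminotransferase, measured 6.37, 5.47 and 6.43 log2 in abci20, against 7.49, 7.5 and 7.48 in Col-0, and fell by 1.4 (SE 0.24, adjusted p = 0.00423). MCCA, a subunit of the carboxylase that breaks down leucine, measured 5.77, 5.48 and 6.05 log2 in abci20, against 7.13, 6.87 and 7.13 in Col-0, and fell by 1.28 (SE 0.188, adjusted p = 0.00151). BCE2, a subunit of the branched-chain dehydrogenase of the same route, measured 5.44, 4.56 and 5.05 log2 in abci20, against 3.59, 3.63 and 3.82 in Col-0, and rose by 1.33 (SE 0.243, adjusted p = 0.00655). These 3 held under each omission and did not overlap. KIN11, a SnRK1 kinase subunit, fell by 0.82 (adjusted p = 0.0171). Without abci20 replicate 1 the count was 2 higher and 5 lower: BCAT-1, another branched-chain aminotransferase, rose by 1.06 (adjusted p = 0.0388), and DIN2, a dark-induced glucosidase gene, and GDH1, a glutamate dehydrogenase, fell by 1.56 (adjusted p = 0.0133) and 0.77 (adjusted p = 0.0352). The call of KIN11 was lost when 1 array was left out (without Col-0 replicate 1 or 3, adjusted p up to 0.0719).

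Storage lipid breakdown held 2 lower of 26 (median -0.34). That is 7.69% of the list, and 5.71% of the proteasome list was called. The median levels of both lists lie in the brightest signal class, where 8.86% of probe sets were called. ACX1, an acyl-CoA oxidase of peroxisomal beta-oxidation, fell by 0.79 (adjusted p = 0.0173). ACX3 fell by 0.8 (adjusted p = 0.0496). Proteasome subunits held 2 lower of 35 (median -0.33): RPN6 (ATS9) fell by 0.9 (adjusted p = 0.0256), and PBA1 fell by 0.72 (adjusted p = 0.048). Among 34 genes of fatty acid and oil synthesis, 1 rose, FAD2, the desaturase that makes linoleic acid, which measured 7.11, 6.76 and 7.09 log2 in abci20, against 5.93, 5.58 and 5.75 in Col-0, and rose by 1.23 (SE 0.25, adjusted p = 0.0127). That call held under each omission. Sucrose and raffinose metabolism held 3 lower of 30: MIPS1, the inositol phosphate synthase, fell by 1.21 (adjusted p = 0.0124). TPS11, of the trehalose phosphate synthase family, fell by 0.91 (adjusted p = 0.0168). SPS3F, a sucrose phosphate synthase, fell by 0.8 (adjusted p = 0.0394). With abci20 replicate 1 left out, the lipid breakdown list had 3 lower, with IBR1 at -1.03 (adjusted p = 0.00326) and CSY2 at -0.97 (adjusted p = 0.0465), the proteasome list 2 lower, with PAE1 at -0.78 (adjusted p = 0.0365) in place of PBA1, the oil synthesis list 3 higher, with KASI at 1.68 (adjusted p = 0.00912) and BCCP2 at 1.32 (adjusted p = 0.0205), and the sucrose list 1 higher, CINV1 at 0.81 (adjusted p = 0.0444), and 3 lower. Omitting 1 array at a time ended the calls of ACX1 (without Col-0 replicate 2 or 3, adjusted p up to 0.0675), ACX3 (without abci20 replicate 1 or 2 or Col-0 replicate 1, 2 or 3, adjusted p up to 0.148) and RPN6 (without abci20 replicate 2 or Col-0 replicate 1 or 3, adjusted p up to 0.105). Also lost when 1 array was left out were the calls of PBA1 (without abci20 replicate 1, 2 or 3 or Col-0 replicate 1, 2 or 3, adjusted p up to 0.137), MIPS1 (without Col-0 replicate 1, adjusted p = 0.0592) and TPS11 (without abci20 replicate 2 or Col-0 replicate 1 or 3, adjusted p up to 0.0692). Leaving out a single array ended the call of SPS3F (without abci20 replicate 2 or 3 or Col-0 replicate 1, 2 or 3, adjusted p up to 0.154).

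**Figure D4:**
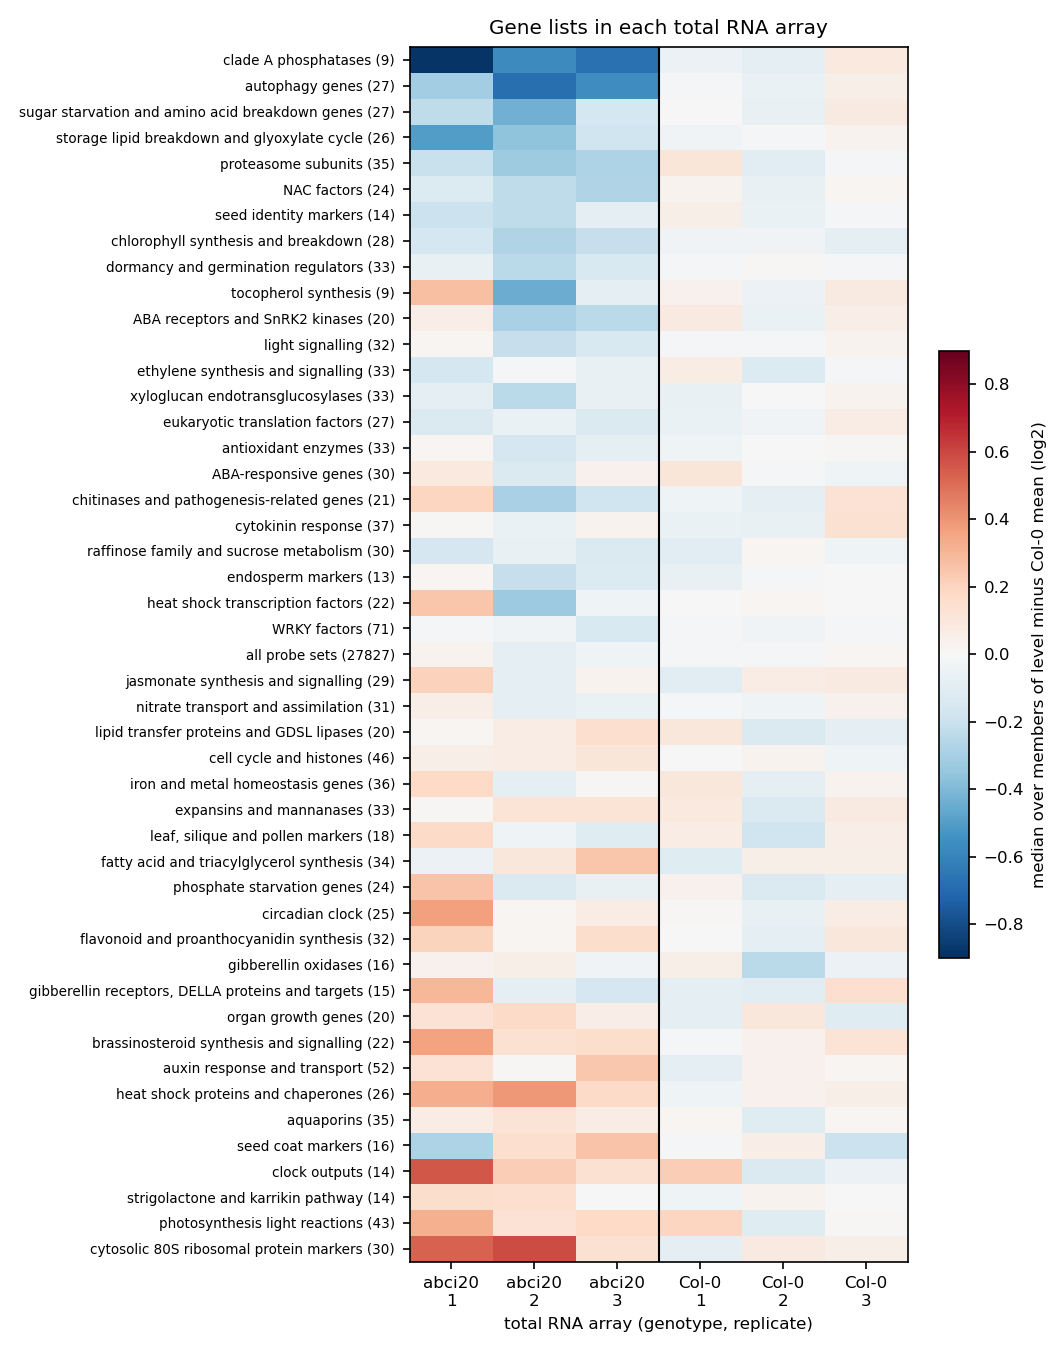
Median over the members of each gene list of the level minus the Col-0 mean (colour, log2), by total RNA array (columns, abci20 left of the line and Col-0 right of it) with the number of members in brackets, sorted by the median fitted change. The clade A phosphatases (-0.88, -0.57 and -0.67) and autophagy genes (-0.31, -0.68 and -0.56) are at the low end in the abci20 arrays, the ribosomal protein genes (0.53, 0.59 and 0.14) at the high end, and replicate 1 departs from replicates 2 and 3 in sign for several lists.

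Heat shock proteins and chaperones had 4 of 26 higher and 0 lower (median 0.17, and 0.29 with 6 higher without abci20 replicate 1). Beside HSP21, the cytosolic small heat shock protein HSP17.6II measured 9.89, 9.68 and 9.6 log2 in abci20, against 7.69, 8.52 and 8.39 in Col-0, and rose by 1.52 (SE 0.276, adjusted p = 0.0064), also under each omission. ROF2 (AT5G48570), a heat-inducible FKBP immunophilin, measured 7.57, 7.3 and 6.89 log2 in abci20, against 5.65, 6.37 and 5.72 in Col-0, and rose by 1.34 (SE 0.282, adjusted p = 0.015). HSP18.2 rose by 1.3 (adjusted p = 0.0376). Of 22 heat shock transcription factors 3 rose and 0 fell (median -0.02). HSFB4 measured 5.15, 5.48 and 4.85 log2 in abci20, against 3.61, 2.86 and 4.14 in Col-0, and rose by 1.62 (SE 0.3, adjusted p = 0.00723), a call that held under each omission. HSFA7B rose by 1.07 (adjusted p = 0.015), and HSFB2A rose by 1 (adjusted p = 0.0159). The factors had 3 higher and 1 lower without abci20 replicate 1, DREB2C at -0.81 (adjusted p = 0.0347). The omission of 1 array ended the calls of ROF2 (without Col-0 replicate 1 or 3, adjusted p up to 0.0708), HSP18.2 (without abci20 replicate 2 or 3 or Col-0 replicate 1, 2 or 3, adjusted p up to 0.132) and HSFA7B (without Col-0 replicate 2 or 3, adjusted p up to 0.0647). The call of HSFB2A was lost when 1 array was left out (without Col-0 replicate 1 or 3, adjusted p up to 0.0791).

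Nitrate genes changed in both directions: 4 of 31 rose and 3 fell (median 0.04, and -0.1 after median centring). NIA1, a nitrate reductase, measured 8.46, 7.51 and 7.48 log2 in abci20, against 6.46, 6.27 and 6.45 in Col-0, and rose by 1.42 (SE 0.282, adjusted p = 0.011). NRT2.5, a high-affinity transporter, measured 4.86, 4.5 and 4.87 log2 in abci20, against 6.07, 5.99 and 5.94 in Col-0, and fell by 1.25 (SE 0.225, adjusted p = 0.00608), opposite to its relative NRT2.6. NLP8 (AT2G43500), a nitrate-responsive regulator of germination, measured 7.14, 6.66 and 7.39 log2 in abci20, against 8.46, 8.42 and 8.5 in Col-0, and fell by 1.4 (SE 0.21, adjusted p = 0.00177). None of these overlapped between the genotypes, and NRT2.6, NIA1, NRT2.5 and NLP8 held under each omission. The other 2 members that rose, named after their values were seen, were NIR1, the nitrite reductase, by 1.01 (adjusted p = 0.0119), and WR3, which acts in nitrate uptake, by 0.83 (adjusted p = 0.0347). GSR2, a glutamine synthetase, measured 2.34, 1.81 and 1.43 log2 in abci20, against 3.45, 2.57 and 2.81 in Col-0, and fell by 1.08 (adjusted p = 0.0364). The list had 3 higher and 4 lower without abci20 replicate 1, as WR3 dropped out and the transporter gene NRT1.1 fell by 1.15 (adjusted p = 0.0238). Omitting 1 array at a time ended the calls of NIR1 (without Col-0 replicate 1 or 3, adjusted p up to 0.0521), WR3 (without abci20 replicate 1 or 2 or Col-0 replicate 1, 2 or 3, adjusted p up to 0.116) and GSR2 (without abci20 replicate 2 or 3 or Col-0 replicate 1 or 3, adjusted p up to 0.147).

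Clock output genes held 3 higher and 0 lower of 14 (median 0.24, and -0.01 without abci20 replicate 1, which kept the same count). CCL and COL5 were joined by GRP7, a glycine-rich RNA-binding protein under clock control. It measured 9.13, 8.89 and 8.69 log2 in abci20, against 6.65, 7.39 and 7.22 in Col-0, and rose by 1.82 (SE 0.266, adjusted p = 0.00151), with all mutant arrays more than 1 log2 above all Col-0 arrays. Of 25 core clock genes 1 rose, PRR5, a pseudo-response regulator, by 1.18 (adjusted p = 0.0336). In the light signalling list of 32, PIF1 rose and 2 photoreceptor genes fell. PHYD, a phytochrome, fell by 0.98 (adjusted p = 0.0213), and CRY2, a cryptochrome, fell by 0.76 (adjusted p = 0.0306). In the fit without that array the core clock list had 2 higher, with TOC1 at 0.84 (adjusted p = 0.0194), and the light list 0 higher and 3 lower, with PIL2 at -1.51 (adjusted p = 0.0308). Lost when 1 array was left out were the calls of PRR5 (without abci20 replicate 2 or Col-0 replicate 1, 2 or 3, adjusted p up to 0.129), PHYD (without abci20 replicate 2 or Col-0 replicate 1 or 3, adjusted p up to 0.0857) and CRY2 (without abci20 replicate 2 or 3 or Col-0 replicate 1, 2 or 3, adjusted p up to 0.107).

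Flavonoid synthesis held 2 higher and 0 lower of 32 (median 0.11, and -0.03 after median centring), both enzymes of the central route to flavonols and tannins. TT7, the flavonoid 3'-hydroxylase, measured 6.46, 6.1 and 6.14 log2 in abci20, against 4.15, 4.57 and 4.54 in Col-0, and rose by 1.82 (SE 0.225, adjusted p = 0.000448). F3H, the flavanone 3-hydroxylase, measured 7.32, 6.76 and 6.66 log2 in abci20, against 5.02, 5.4 and 5.58 in Col-0, and rose by 1.58 (SE 0.225, adjusted p = 0.00111). Both held under each omission, and without abci20 replicate 1 the list had 4 higher and 2 lower. In the tocopherol list 1 of 9 rose, G-TMT, the last methyltransferase in the synthesis of vitamin E, by 1.44 (adjusted p = 0.0149). Antioxidant enzymes held 3 lower of 33: GPX7, a chloroplast glutathione peroxidase-like enzyme, measured 6.16, 6.16 and 5.9 log2 in abci20, against 7.33, 7.23 and 7.58 in Col-0, and fell by 1.31 (SE 0.218, adjusted p = 0.00353), a call that held under each omission. CAT1, a catalase, fell by 1.16 (adjusted p = 0.0437), and FSD2, a chloroplast superoxide dismutase, fell by 0.96 (adjusted p = 0.0211). With that array left out, the tocopherol list had 1 higher and 1 lower, TAT7 at -1.16 (adjusted p = 0.0459), and the antioxidant list 5 lower, joined by PRXIIF at -0.91 (adjusted p = 0.011) and GPX1 at -0.84 (adjusted p = 0.0188). Leaving out a single array ended the calls of G-TMT (without abci20 replicate 2 or Col-0 replicate 3, adjusted p up to 0.0675), CAT1 (without abci20 replicate 2 or 3 or Col-0 replicate 1, 2 or 3, adjusted p up to 0.167) and FSD2 (without abci20 replicate 3 or Col-0 replicate 1 or 3, adjusted p up to 0.0802).

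Expansins and mannanases loosen cell walls and help weaken the endosperm at germination. Of 33 expansin and mannanase genes 3 fell and 0 rose, among them MAN5, a mannanase that also counts as an endosperm marker. MAN5 measured 5.11, 4.77 and 5.83 log2 in abci20, against 6.54, 6.64 and 6.77 in Col-0, and fell by 1.41 (SE 0.242, adjusted p = 0.00423), a call that held under each omission. MAN1, another mannanase, fell by 1.73 (adjusted p = 0.0275), and EXPA13, an expansin, fell by 0.72 (adjusted p = 0.046). XTH11, of the 33 xyloglucan endotransglucosylases, measured 4.42, 5.05 and 5.77 log2 in abci20, against 7.39, 7.06 and 7.28 in Col-0, and fell by 2.16 (SE 0.297, adjusted p = 0.000952). It held under each omission, and XTH29 fell by 1.08 (adjusted p = 0.0142). XTH29 measured 1.94, 1.67 and 1.45 log2 in abci20, against 2.93, 2.76 and 2.6 in Col-0, all below the array medians. When abci20 replicate 1 was left out, the expansin and mannanase list had members in both directions, 3 higher and 4 lower: EXPA6, EXPA9 and EXLA2 rose by 1.63 (adjusted p = 0.0166), 1.52 (adjusted p = 0.0498) and 1.25 (adjusted p = 0.0291), and EXLA1 fell by 1.24 (adjusted p = 0.0121). The xyloglucan list then had 3 lower, joined by EXGT-A3 at -1.12 (adjusted p = 0.015). The omission of 1 array ended the calls of MAN1 (without abci20 replicate 2 or Col-0 replicate 1 or 3, adjusted p up to 0.116), EXPA13 (without abci20 replicate 2 or 3 or Col-0 replicate 1, 2 or 3, adjusted p up to 0.142) and XTH29 (without Col-0 replicate 1, adjusted p = 0.06).

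Markers of other seed parts and tissues were read beside these results. MAN5 was the 1 lower gene of the 13 endosperm markers, and 0 of 16 seed coat and 0 of 18 leaf, silique and pollen markers passed. When abci20 replicate 1 was left out, the coat markers GATL5 and MUM2 rose by 1 (adjusted p = 0.0448) and 0.74 (adjusted p = 0.0481). The endosperm marker PHE1 then rose by 1.64 (adjusted p = 0.0138), against 0.67 (adjusted p = 0.614) with all arrays. Whether the share of seed parts in the samples bears on the changes was not tested.

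Over 30 cytosolic ribosomal protein genes the median was 0.42 log2 (0.28 after median centring), with 2 higher and 0 lower. The list's median distance from the Col-0 mean was 0.53, 0.59 and 0.14 log2 in abci20 and between -0.08 and 0.08 in Col-0. RPL16B rose by 1.02 (adjusted p = 0.0129), and RPS10B rose by 0.88 (adjusted p = 0.0232). Of 27 translation factors 1 rose, EIF4A1, an RNA helicase of cap-dependent initiation, by 1.04 (adjusted p = 0.0429). Of 46 cell cycle and histone genes 1 rose, of 35 aquaporins 1 rose, of 36 metal homeostasis genes 2 fell and of 24 phosphate starvation genes 1 fell. Of 20 organ growth genes 1 fell, ARL, and of 21 listed chitinase and pathogenesis-related genes 1 fell, PR4. Of 20 listed lipid transfer protein and GDSL lipase genes 0 passed. The lists were built from gene symbols and do not cover whole families. The GDSL lipase family gene AT1G71250, which led the higher genes, is not among these 20, and AT2G43590 is not among the 21. In the fit without abci20 replicate 1, the ribosomal list had 3 higher and 1 lower, the translation factors 1 and 1 (TCTP in place of EIF4A1, and S6K2), the cell cycle list 4 and 0, the aquaporins 4 and 0, the metal genes 3 and 2, the organ growth genes 1 and 1, the chitinase list 0 and 2 and the lipid transfer and lipase list 2 and 0. Over all probe sets that fit called 9.49%, and the shares called in these lists, from 7.41% to 13.9%, are near it. Among their members, the aquaporin gene PIP1C rose by 2.11 (adjusted p = 0.00208) and the zinc transporter gene ZIP1 by 1.62 (adjusted p = 0.00314). GLIP1, a lipase with antimicrobial activity, rose by 2.73 (adjusted p = 0.000276), against 1.56 (adjusted p = 0.2) with all arrays. Its value in abci20 replicate 1, 1.77 log2, lay below every Col-0 value. Calls lost without 1 array were those of RPL16B (without Col-0 replicate 1, adjusted p = 0.0638), RPS10B (without Col-0 replicate 1 or 3, adjusted p up to 0.0981) and EIF4A1 (without abci20 replicate 1 or Col-0 replicate 1, 2 or 3, adjusted p up to 0.148).

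The total RNA changes were last set beside the genotype changes in ribosome-bound RNA, which come from other arrays. If like replicate numbers stand for the same plants, the fractions share their seeds, so the fractions are not independent replicates of each other. In polysomal RNA, from messages with several ribosomes, 123 probe sets passed (0.442%), and in monosomal RNA, from messages with a single ribosome, 510 passed (1.83%). Of the 310 genes higher in total RNA, 47 were also called higher in polysomal RNA (15.2% of the 310 and 38.2% of the 123) and 108 in monosomal RNA (34.8% of the 310 and 21.2% of the 510). Of the 622 lower genes, 49 (7.88% of the 622 and 39.8% of the 123) and 123 (19.8% of the 622 and 24.1% of the 510) were also called lower there. A single gene was called in the opposite direction, in monosomal RNA. The median change of the 310 was 1.22 log2 in total, 0.58 in polysomal and 0.66 in monosomal RNA, and that of the 622 was -1.05, -0.51 and -0.61. The genes were chosen by their total RNA change, so larger values there are built into the choice.

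Some of the genes described above were also called in both ribosome-bound fractions. ARL changed by -2.97 (adjusted p = 0.000257) in polysomal and -2.39 (adjusted p = 0.00147) in monosomal RNA, EBF2 by -2.29 (adjusted p = 0.000821) and -2.15 (adjusted p = 0.00125), and HSP21 by 2.89 (adjusted p = 0.000257) and 2.46 (adjusted p = 0.00107). For NAC019 the values were -2.87 (adjusted p = 0.000257) and -3.16 (adjusted p = 2.39e-05). The clade A phosphatases differed: ABI1 had -1.65 (adjusted p = 0.00278) and -1.31 (adjusted p = 0.00955), and HAI2 was called only in monosomal RNA, at -1.35 (adjusted p = 0.0171). PP2CA was called in neither, at -0.5 (adjusted p = 0.467) and -0.7 (adjusted p = 0.0844). Others were not called in either fraction. PSBO2 had 0.07 (adjusted p = 1.0) and 0.07 (adjusted p = 0.967), AT5G43620 had -0.76 (adjusted p = 0.415) and -0.29 (adjusted p = 0.728), and HAI1 had -0.4 (adjusted p = 0.875) and 0 (adjusted p = 1.0).

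**Figure D5:**
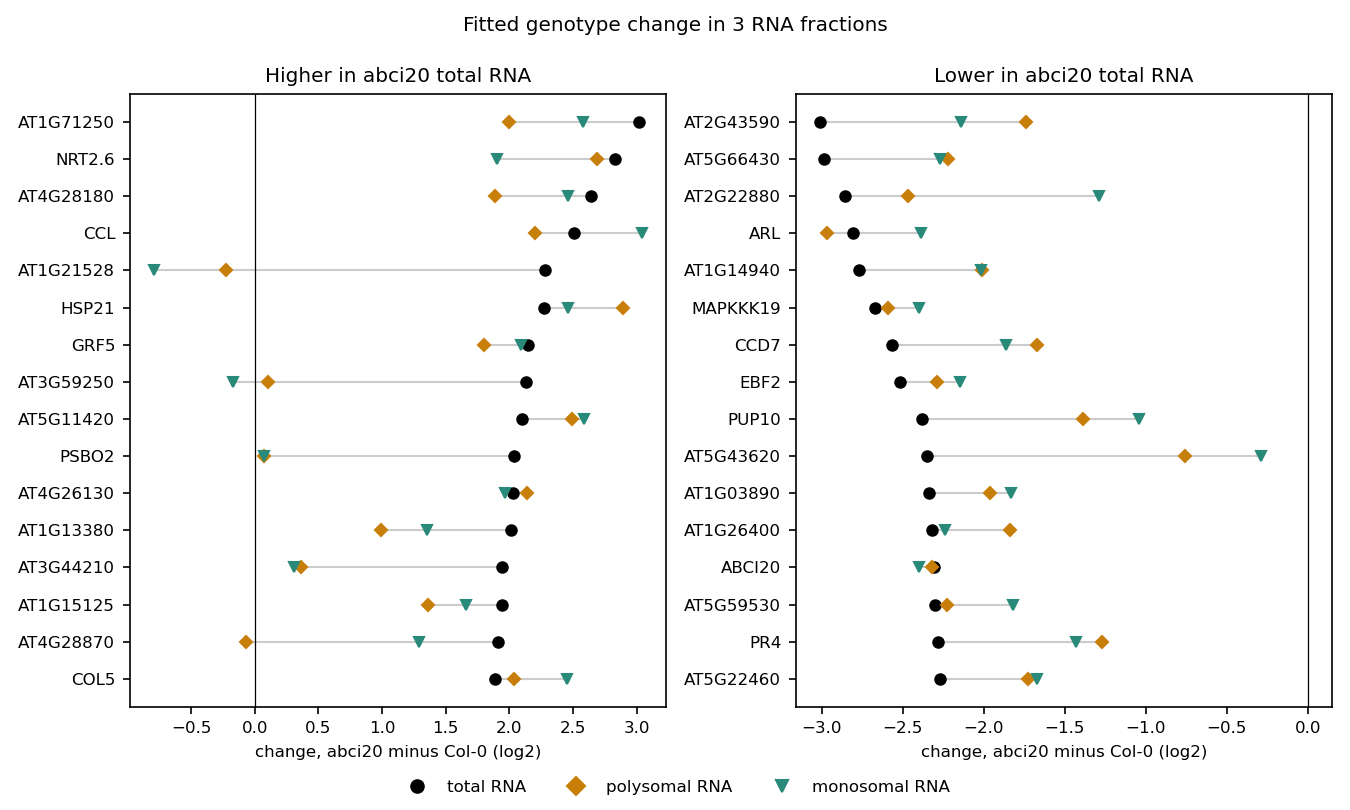
Fitted genotype change (x axis, abci20 minus Col-0, log2) of the 32 genes with the largest total RNA changes, in total RNA (black circles), polysomal RNA (orange diamonds) and monosomal RNA (green triangles). Most genes keep their side of 0, while AT1G21528, AT3G59250, PSBO2, AT3G44210 and AT5G43620 lie within 1 log2 of 0 in both ribosome fractions.

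The differences between fractions were themselves tested. With all arrays, 0 probe sets had a total RNA change that differed from the polysomal one at an adjusted p of 0.05 in limma (1263 at an unadjusted p under 0.05). Likewise 0 differed from the monosomal one (2270 at an unadjusted p under 0.05), with 1 after quantile normalization, 1 with array weights and 2 without Col-0 replicate 1. For HUA2, which acts in RNA processing, the total RNA change was -1.26 and the monosomal one 0.16 (difference -1.42, adjusted p = 0.230). For MED22B, a Mediator subunit, the total RNA change was -2.06 and the polysomal one -0.08 (difference -1.98, adjusted p = 0.999). Without abci20 replicate 1 the counts were 28 (0.101%) and 208 (0.747%).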

How the data were processed

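Transcript levels in dry seeds were measured on 18 arrays in 6 groups of 3 (abci20 and Col-0, in total, polysomal and monosomal RNA), with RNA purified with TriPure and RNeasy columns and cRNA made with a 3-prime one-cycle kit, per the labels' protocols. The deposited values are log2 signals that the authors summarised with RMA, per the submitters' processing notes. The RMA version, and whether all arrays were normalized together, are not given in the sources used here. Values ran from 0.301 to 12.71, and scan-level quality was not examined. The number of arrays limits the precision: a fitted difference had a median SE of 0.291 log2. Separate seed bulks are stated for the replicates, so their spread includes growth.

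Names came from a RefSeq table (TAIR10.1), which matched 27241 of 27827 probe sets and left 586 under their locus. The 182 probe sets identical to another on every array stayed in the fit and were neither named nor used in lists. A limma 3.58.1 model (lmFit, then eBayes, under R 4.3.3) took in the 18 arrays and gave each of the 6 groups its own mean, which left 12 residual degrees of freedom. Tests were two-sided, with Benjamini-Hochberg adjustment over all probe sets at 0.05. Data were also simulated for this comparison over 27827 probe sets. Of 100 changes of 1 log2, 31 were recovered, and of 100 changes of 2 log2, 89, with 9 false calls. The simulated noise was independent between arrays, with 1 spread per probe set shared by all groups. It held no array that stands apart and no wider abci20 total group, so these figures do not carry over to the real arrays.

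The comparison, the 46 gene lists, the rule for named genes and the named alternatives were chosen with earlier results of these data known. Of 1439 listed symbols, 1265 were used, and 63 repeated a locus, 57 had no match, 51 matched several loci, 2 were identical probe sets and 1 was not measured. Named genes were ABCI20, the 16 higher and 16 lower with the largest changes past the threshold with and without abci20 replicate 1 and without overlap, up to 5 members per list past the threshold (or 2 with the smallest p), and the genes with the smallest p of each difference between fractions. List members named only for their change without abci20 replicate 1, and the phosphatase and chlorophyll breakdown genes that did not pass, were added after their values were seen.

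Pairing by replicate number was checked on residuals: same-numbered abci20 and Col-0 total RNA arrays correlated at -0.152, 0.170 and -0.166, so the numbers were not taken as pairs and the block served as an alternative. A planned search for promoter motifs was not run, because no promoter sequences were available here.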

Additional observations from a re-analysis of the deposited data

Results flagged for a closer look

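Without abci20 replicate 1, the genotype change in total RNA differed from that in polysomal RNA in 28 probe sets. In 25 of them the total RNA change was the more positive. It differed from the monosomal change in 208, being more positive in 157 and more negative in 51. With all arrays both counts were 0 in limma, with 1263 and 2270 probe sets at an unadjusted p under 0.05. The cause of this dependence on 1 array was not tested. The 3 genes with the smallest p in each comparison are given here.

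AT4G14225 measured 1.77, 4.26 and 4.81 log2 in abci20 total RNA, against 2.01, 2.15 and 2.34 in Col-0, so replicate 1 lay below every Col-0 array. Without abci20 replicate 1 its total RNA change of 2.37 exceeded the polysomal one of -0.33 by 2.7 log2 (SE 0.33, adjusted p = 0.00714). It exceeded the monosomal one of -0.22 by 2.6 (adjusted p = 0.00755). ERS2, an ethylene receptor gene, measured 1.63, 4.11 and 4.12 in abci20 and 3.67, 2.96 and 2.61 in Col-0, and its total RNA change exceeded the polysomal one by 3.18 (adjusted p = 0.00714). Its total RNA change in that fit was 1.03 and its polysomal one -2.15, so the fall in polysomal RNA was the larger part of this difference. NP1, a kinase gene, measured 3.2, 5.12 and 4.61 in abci20 and 3.15, 3.49 and 3.34 in Col-0, with a difference from polysomal RNA of 2.12 (1.54 against -0.58, adjusted p = 0.0198). In these 3 genes replicate 1 lay within or below the Col-0 values, and with all arrays their total RNA changes did not pass (adjusted p = 0.123, 0.885 and 0.121).

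TCP2, a TCP transcription factor gene, measured 4.77, 2.9 and 3.29 log2 in abci20 and 5.62, 5.01 and 5.37 in Col-0. Without abci20 replicate 1 its total RNA change of -2.24 differed from the monosomal one of 0.64 by -2.87 (adjusted p = 0.00106). AT3G51360 measured 2.48, 3.64 and 3.93 in abci20 and 2.23, 2.05 and 1.55 in Col-0, with a difference of 2.41 (1.84 against -0.57, adjusted p = 0.00755). For both, all abci20 arrays lay on one side of all Col-0 arrays, and their total RNA changes passed with all arrays as well, at -1.68 (adjusted p = 0.0118) and 1.4 (adjusted p = 0.0165).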

How the results depend on the processing

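The 932 calls in total RNA ranged from 355 to 2640 when 1 of the 6 total RNA arrays was left out. They became 1701 among brighter probe sets only, 1520 with a variance trend and robust estimation, and 0 when only the compared groups were fitted, with and without abci20 replicate 1 (2765 and 5093 at an unadjusted p under 0.05). The count was 971 with a replicate block, 2790 with the replicate block and without abci20 replicate 1, 916 after quantile normalization, 1092 after median centring and 1326 with array weights. Leaving out abci20 replicate 1 and Col-0 replicate 3 together, chosen after seeing the data because their residuals correlated at 0.321, gave 1515. The block ended the calls of 4 of 78 list members and 0 of the 32 genes with the largest changes. Quantile normalization ended 15 and 1, median centring 8 and 0, array weights 15 and 1. No named gene of the 32 or the 78 changed direction under any of these. The count of differences from polysomal RNA ran from 0 to 28, and that from monosomal RNA from 0 to 208, over the omissions of 1 array, with 1 after quantile normalization and 1 with array weights for monosomal RNA. Replicate 1 stands apart, and calls were more frequent among bright probe sets. The other groups, whose arrays correlate more closely than those of abci20 total RNA, enter the estimate of the spread. The motif search was not run.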

Other observations

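The called genes behind the counts for aquaporins, metal homeostasis, phosphate starvation and the cell cycle are given here by their values. PIP3, a plasma membrane aquaporin, measured 3.81, 4.36 and 3.95 log2 in abci20, against 3.11, 2.73 and 2.62 in Col-0, and rose by 1.22 (adjusted p = 0.0294). FER3, a ferritin, measured 5.09, 4.66 and 5.34 log2 in abci20, against 6.61, 6.19 and 5.73 in Col-0, and fell by 1.15 (adjusted p = 0.015). FRO2, a ferric reductase, measured 5.07, 5.7 and 4.94 log2 in abci20, against 6.43, 6.22 and 6.23 in Col-0, and fell by 1.06 (adjusted p = 0.0122). PHO2, which limits phosphate uptake, measured 8.06, 7.84 and 8.89 log2 in abci20, against 9.29, 9.14 and 9.45 in Col-0, and fell by 1.03 (adjusted p = 0.025). CYCD1;1, a D-type cyclin, measured 3.26, 3.15 and 3.25 log2 in abci20, against 2.3, 2.49 and 2.4 in Col-0, and rose by 0.82 (adjusted p = 0.029). In all 5 the abci20 and Col-0 arrays did not overlap, as in 4673 of 27827 probe sets and in 922 of the 932 called. Omitting 1 array at a time ended the calls of PIP3 (without abci20 replicate 2 or 3 or Col-0 replicate 2 or 3, adjusted p up to 0.116), FER3 (without abci20 replicate 2 or Col-0 replicate 1, adjusted p up to 0.0706) and FRO2 (without Col-0 replicate 1, adjusted p = 0.0521). Also lost when 1 array was left out were the calls of PHO2 (without abci20 replicate 2 or Col-0 replicate 1 or 3, adjusted p up to 0.104) and CYCD1;1 (without abci20 replicate 2 or 3 or Col-0 replicate 1, 2 or 3, adjusted p up to 0.094).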
